A study of Mus musculus with 4 samples.

Results

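The genes described here load neurons' transmitters into synaptic vesicles, take them back up or make them. They are Slc17a7, Slc17a6 and Slc17a8 (the vesicular glutamate transporters VGLUT1, VGLUT2 and VGLUT3), Slc18a2 (the vesicular monoamine transporter VMAT2), Slc18a3 (the vesicular acetylcholine transporter), Chat (choline acetyltransferase), Th (tyrosine hydroxylase), Slc6a3 (the dopamine transporter) and Slc6a4 (the serotonin transporter). They were chosen by symbol and are 9 of the 32285 genes in the count tables. The data are spatial transcriptomes of 4 fresh-frozen brain sections, each 10 µm thick and each labelled Nf1+/-, the genotype of mice heterozygous for a mutation of Nf1, a brake on Ras signalling. Which mutant allele the sections carry is not stated in the labels. The study's mice were kept on a C57/BL6 background, no treatment is named for these sections, and the labels give neither the age nor whether the sections came from separate animals, so p-values measure only the spread between sections, which may be technical. No sample with both Nf1 copies intact was analysed, and nothing here compares genotypes. A spot is a small barcoded area of a section that can hold several cells, or parts of them, and a UMI is 1 captured RNA molecule.

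At a synapse, transmitter is pumped from the cytosol into vesicles by a transporter that fixes which transmitter the vesicle can release. As background, Slc17a7 and Slc17a6 are known for serving largely separate excitatory neurons of the brain, the first in cortex and hippocampus and the second in thalamus, hypothalamus and brainstem, whereas Slc17a8 is found in scattered neurons that also use acetylcholine, serotonin or GABA. Acetylcholine neurons make the transmitter with Chat, pack it with Slc18a3 and recover choline with Slc5a7. Dopamine neurons use Th, the decarboxylase Ddc, Slc18a2 and Slc6a3, and serotonin neurons use Ddc, Slc18a2 and Slc6a4. The cell bodies of most dopamine and serotonin neurons lie in the midbrain and brainstem and send axons to the forebrain, while RNA captured in a spot comes mostly from cell bodies.

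Slc17a7 and Slc17a6 are both on chromosome 7 on the plus strand (RefSeq, GRCm38.p6), Slc17a7 at chr7:45163921-45176139 and Slc17a6 at chr7:51621830-51671126. Slc18a3, at chr14:32462437-32464850, lies entirely within Chat, at chr14:32408203-32465909, and both are read from the minus strand, the arrangement known as the cholinergic gene locus. How reads of this shared stretch were divided between the 2 genes was not tested. Th is at chr7:142892779-142899995, on the minus strand. The 250 bases before the start of 5 genes are shown, read along each gene's strand from 5′ to 3′: of the pair of glutamate transporters compared below, of the 2 nested cholinergic genes, and of Th. Capitals mark 4 motifs searched on both strands. They were GGGCGG, known as the GC box and bound by Sp factors, then the box spelled CCAAT, then CAGCTG, an E box bound by helix-loop-helix factors, and last the cAMP response element TGACGTCA.
Slc17a7 promoter (chr7:45163671-45163920, plus strand): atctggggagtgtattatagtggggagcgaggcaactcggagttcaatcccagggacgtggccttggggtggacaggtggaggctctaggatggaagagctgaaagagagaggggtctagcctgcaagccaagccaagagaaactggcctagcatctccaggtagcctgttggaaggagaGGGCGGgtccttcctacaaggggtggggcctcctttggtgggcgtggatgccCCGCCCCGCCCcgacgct
Slc17a6 promoter (chr7:51621580-51621829, plus strand): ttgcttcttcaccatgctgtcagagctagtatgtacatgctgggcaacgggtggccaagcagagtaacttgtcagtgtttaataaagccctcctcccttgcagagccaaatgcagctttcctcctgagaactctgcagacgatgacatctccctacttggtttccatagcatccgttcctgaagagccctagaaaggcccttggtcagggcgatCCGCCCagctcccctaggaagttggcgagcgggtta
Slc18a3 promoter (chr14:32464851-32465100, minus strand): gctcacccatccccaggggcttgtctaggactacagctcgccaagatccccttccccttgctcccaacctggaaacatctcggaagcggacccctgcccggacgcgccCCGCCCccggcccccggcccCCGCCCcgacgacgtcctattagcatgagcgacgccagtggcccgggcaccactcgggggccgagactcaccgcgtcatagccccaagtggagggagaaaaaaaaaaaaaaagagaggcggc
Chat promoter (chr14:32465910-32466159, minus strand): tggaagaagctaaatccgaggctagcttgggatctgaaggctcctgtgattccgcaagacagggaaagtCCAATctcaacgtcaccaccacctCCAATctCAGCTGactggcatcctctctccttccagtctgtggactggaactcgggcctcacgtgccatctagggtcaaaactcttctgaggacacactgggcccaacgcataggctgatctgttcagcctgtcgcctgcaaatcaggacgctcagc
Th promoter (chr7:142899996-142900245, minus strand): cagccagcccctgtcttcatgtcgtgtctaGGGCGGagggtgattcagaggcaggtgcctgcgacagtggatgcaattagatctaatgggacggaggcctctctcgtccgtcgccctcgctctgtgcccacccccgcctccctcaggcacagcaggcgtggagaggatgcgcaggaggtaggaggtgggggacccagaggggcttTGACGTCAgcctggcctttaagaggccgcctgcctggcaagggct
Slc17a7 held 3 GC boxes, of which the last pair overlap, Slc18a3 held 2, and Slc17a6 and Th held 1 each. Chat held 2 CCAAT boxes and 1 E box, and Th alone of the 5 held the cAMP response element. Over 32851 mouse promoters of the RefSeq table, cut to the same length, the GC box occurred in 32.7%, CCAAT in 33.8%, the E box in 13% and the cAMP response element in 1.55%. A match is a run of letters and shows no binding.

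After spots under 500 UMIs were left out, 7620 of 7668 spots remained, with 101748572 UMIs in all, 19261103 to 37001945 UMIs per section and section medians of 8863 to 15297 UMIs per spot. Neuronal and oligodendrocyte markers were the strongest of the 5 brain cell lists examined (summed levels of 2474 to 3649 and of 2100 to 3353 CPM). CPM are a gene's UMIs scaled to the same total for every section or group of spots. Sections shared 427 to 1989 spot barcodes because the slide's barcode set is fixed, so a shared barcode is a position and not a shared cell. The files analysed here hold no image or position for a spot.

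Slc17a7 dominated. It was measured at 339.8, 511, 452 and 481 CPM in sections 1 to 4 (446 ± 74.95, SD, n = 4 sections), which put it at rank 324 of 22107 genes with a UMI, and its 46125 UMIs were 93.5% of those of the 9 genes together. The lowest section was section 1, and the other 3 lay close together. Slc17a6 was measured at 15.8, 8.89, 10.1 and 20.3 CPM (13.8 ± 5.29), and sections 1 and 4 were both above sections 2 and 3. Slc17a8 stood at 6.69, 7.24, 5.13 and 5.76 CPM (6.21 ± 0.941). Of the genes with over 100 UMIs it varied least across sections, with a coefficient of variation of 15.2% against 38.4% for Slc17a6.

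The cholinergic transporter Slc18a3 was at 7.84, 6.27, 4.997 and 2.23 CPM (5.33 ± 2.37), a 3.51-fold range that was the widest of the genes with over 100 UMIs. Th was at 4.69, 4.70, 4.45 and 2.02 CPM (3.97 ± 1.299), so section 4 was low for both. Slc18a2 reached 1.79, 2.35, 1.64 and 1.14 CPM. Chat, the enzyme that makes acetylcholine, gave 12, 17, 9 and 7 UMIs (0.511, 0.459, 0.409 and 0.363 CPM). Its 45 UMIs in all compare with 569 for Slc18a3, the gene nested within it.

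The plasma membrane transporters of dopamine and serotonin were almost absent. Slc6a3 had 2, 8, 2 and 2 UMIs, never more than 1 in a spot. Slc6a4 had 3 UMIs, all in section 2, and the count of 0 in sections 1, 3 and 4 allows at most 0.128, 0.136 and 0.156 CPM (3 counts of the section's total). Nothing is said of these 2 genes by region.

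Slc17a7 was seen in 72.9%, 85.1%, 63.5% and 74.5% of the spots of sections 1 to 4 (exact Clopper-Pearson 95% interval 70.6% to 75.1% in section 1 and 61.5% to 65.5% in section 3, for counting error only). Slc17a6 was seen in 17.8%, 10.9%, 8.41% and 17.6% of spots. These shares depend on depth: with each spot of at least 5000 UMIs thinned to 5000 UMIs, and the 72 to 427 shallower spots of each section left out, they were 50.8%, 67.0%, 61.0% and 67.5% for Slc17a7 and 7.65%, 3.43%, 4.50% and 7.68% for Slc17a6. After thinning, Slc17a8 was in 2.12% to 2.89% of spots, Slc18a3 in 1.06% to 4.10%, Th in 1.14% to 2.71%, Slc18a2 in 0.751% to 1.17% and Chat in 0.161% to 0.341%.

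**Figure D1:**
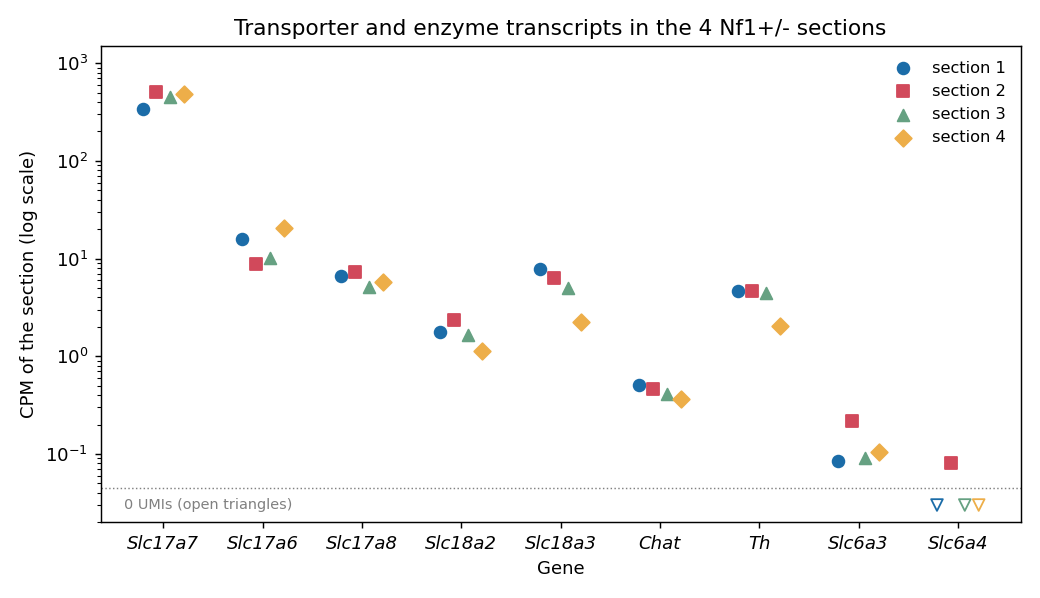
Level of each of the 9 genes in CPM (log axis), 1 marker for each of the 4 sections. Slc17a7, at 339.8 to 511 CPM, lies above the other genes in every section, and Slc6a3 and Slc6a4 lie near the floor of detection.

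To ask where in the brain each gene lay, each spot was given to the region whose short marker list scored highest, if the score was at least 0.5 SD and at least 3 markers of the list were detected. None of the 9 genes was on a list. Cortex list spots numbered 1489 (19.5% of all), striatum list spots 1593 (20.9%), white matter list spots 680 (8.92%), thalamus list spots 337 and hypothalamus list spots 151, and 2786 (36.6%) had no region. No spot met the midbrain and hindbrain list or the cerebellum list. By section, 194 of 1537, 517 of 2358, 371 of 2294 and 407 of 1431 spots were cortex list spots. The part of this mix in the section levels above was not tested. A list's genes are high in its spots because they chose them, so their levels are no check of the name. Among the genes that led the striatum list spots were Lrrc10b, Ido1 and Penk, the enkephalin precursor of striatal projection neurons. In the thalamus list spots 9 of the 10 list genes were higher than in other spots, such as Tcf7l2 at 25.3 against 5.47 CPM, and Shox2 was at 0 UMIs there and at 0.0208 CPM elsewhere. Because the genes that led these spots were Gnrh1, Zic1, Vip and Npy, the spots are named here only by the list. The hypothalamus list spots held Baiap3 at 158 against 13.5 CPM and Avp, the vasopressin gene, at 18.1 against 1.08 CPM, while Otp, Sim1 and Six6 had 2, 2 and 1 UMIs. They were led by AW551984 and the pituitary hormone genes Gh and Prl, and are also named only by the list.

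Slc17a7 was high in cortex list spots, and also in olfactory bulb list spots (657 and 872 CPM in sections 2 and 3) and in the 20 hippocampus list spots of section 2 (767 CPM). The smaller hippocampus groups of sections 1, 3 and 4, of 10, 6 and 5 spots, were at 210, 908 and 691 CPM. These names too are only those of the lists. Hippocampus list spots were led by Vip, Tac2 and Ccn3. In olfactory bulb list spots the list gene Gng13 was at 404 against 444 CPM elsewhere, while the other list genes were higher there. In cortex list spots Slc17a7 was at 938, 921, 825 and 772 CPM in sections 1 to 4, and in striatum list spots at 87.4, 95.1, 62.0 and 105 CPM. The difference was 9.03-fold (log2 fold change -3.17 ± 0.17, SE, edgeR adjusted p = 6.99e-20). In this comparison 43.8% of the 12366 genes tested were called, 21.8% as higher in striatum list spots, so a call by itself says little of any 1 gene. Slc17a6 went the same way: it was at 14.5, 12.7, 12.2 and 29.0 CPM in cortex list spots, where section 4 stood apart, and at 5.18, 2.85, 4.43 and 2.61 CPM in striatum list spots. Its fall was 3.96-fold (log2 fold change -1.98 ± 0.21, edgeR adjusted p = 4.13e-11). Both glutamate transporters were thus lower in the striatum list spots, and neither replaced the other there.

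The opposite held for Slc17a8 and Slc18a3. In striatum list spots Slc17a8 was at 10.0, 12.6, 8.86 and 6.52 CPM against 5.86, 4.86, 1.90 and 2.55 CPM in cortex list spots (2.85-fold, log2 fold change 1.51 ± 0.30, edgeR adjusted p = 3.74e-05). Slc18a3 was at 7.78, 11.5, 8.86 and 3.13 CPM against 1.78, 2.58, 1.90 and 0.424 CPM (4.85-fold, log2 fold change 2.28 ± 0.31, edgeR adjusted p = 3.52e-08). Cholinergic interneurons, which carry both genes, are known in striatum. The level of Slc18a3 was not particular to striatum list spots. In sections 1 and 4 it was higher in thalamus list spots (8.93 and 6.43 CPM) and white matter list spots (7.94 and 4.31 CPM). In sections 2 and 3 it was lower in both of these. In sums of spots, more cells of a type and more RNA per cell cannot be told apart. Slc18a2 was at 0.741, 1.28, 0.233 and 0.522 CPM against 0.255, 0.396, 0.422 and 0.141 CPM, and missed the threshold (log2 fold change 1.28 ± 0.60, edgeR adjusted p = 0.0816).

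Chat and Th did not pass the filter on low counts, which is applied over the sums of all regions and not over this pair alone. Chat had 0 UMIs in the cortex list spots of every section, which allows at most 0.764, 0.297, 0.633 and 0.424 CPM there, and 5, 12, 6 and 3 UMIs in the striatum list spots, at 0.926, 1.18, 1.40 and 0.782 CPM. Thus 57.8% of its UMIs came from 20.9% of the spots. In the edgeR test without the filter, which called 5973 of 21475 genes, Chat was called (adjusted p = 2.26e-05). Th was at 6.48, 7.47, 6.06 and 3.13 CPM in striatum list spots against 2.04, 2.28, 2.32 and 1.56 CPM in cortex list spots, and in the edgeR test without the filter it was called too (log2 fold change 1.60 ± 0.26, adjusted p = 1.11e-08). Cell bodies with Th RNA are known in small numbers in the striatum, and whether these UMIs came from them was not tested.

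The other region contrasts used the same cortex sums, so they are not independent of each other. In white matter list spots Slc17a7 was at 199.99, 384, 249.8 and 348 CPM, below cortex in every section (log2 fold change -1.55 ± 0.17, edgeR adjusted p = 5.44e-10), where 37% of the genes tested were called. These spots were also shallower, with median UMIs of 4253 to 8553 against 12014 to 19712 in cortex list spots, and the part of depth in the difference was not tested. Slc17a6 was at 9.39, 5.89, 8.404 and 7.55 CPM (log2 fold change -1.08 ± 0.28, edgeR adjusted p = 0.00213), a call lost without section 4 (-0.72, adjusted p = 0.0766). Slc18a3 was higher there than in cortex, at 7.94, 3.54, 4.58 and 4.31 CPM, on 11, 3, 6 and 4 UMIs (log2 fold change 1.57 ± 0.50, edgeR adjusted p = 0.0114). Slc17a8 and Slc18a2 were not called in white matter list spots (log2 fold changes 0.26 ± 0.55 and 1.93 ± 0.92, edgeR adjusted p = 0.759 and 0.0985).

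Thalamus list spots kept an intermediate level of Slc17a7, at 324, 559, 551 and 601 CPM (log2 fold change -0.79 ± 0.16, edgeR adjusted p = 0.0011), in a contrast with 6.11% of genes called, 3.5% as lower. That call was lost in DESeq2 (-0.74, adjusted p = 0.174). Slc17a6 was at 19.9, 10.1, 19.6 and 22.1 CPM and did not differ detectably from cortex list spots (log2 fold change -0.01, 95% interval -0.44 to 0.41, edgeR adjusted p = 0.993). Because these spots are named only by the list, this is no test of the thalamus, where background places Slc17a6. Slc18a3 was higher, at 8.93, 7.19, 4.91 and 6.43 CPM (1.92 ± 0.43, edgeR adjusted p = 0.0025). Slc18a2 had 4, 13, 2 and 0 UMIs there against 1, 4, 2 and 1 in the larger cortex group (log2 fold change 3.07 ± 0.63, edgeR adjusted p = 0.000965), and was no longer called without section 2 (2.36, adjusted p = 0.224).

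Hypothalamus list spots entered the test for sections 1, 2 and 4. Slc17a7 was at 131, 122 and 45.3 CPM there, against 772 to 938 CPM in cortex list spots (log2 fold change -3.11 ± 0.24, edgeR adjusted p = 7.98e-14, with 21.4% of genes called, 9.13% as higher). Slc17a6 was at 30.5, 2.43 and 35.2 CPM, on 37, 1 and 21 UMIs, and was not called (0.38 ± 0.27, edgeR adjusted p = 0.361). Slc17a6 made up 18.9%, 1.961% and 43.8% of the UMIs of the pair in these spots, against 1.52%, 1.36% and 3.62% in the cortex list spots of the same sections, so section 2 showed little of the shift seen in sections 1 and 4.

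Slc17a8 had 8, 0 and 21 UMIs and was called (log2 fold change 1.66 ± 0.52, edgeR adjusted p = 0.0169), but without section 4 its log2 fold change was -0.07. Slc18a3 had 15, 0 and 0 UMIs, all in section 1, and its call (1.66 ± 0.62, edgeR adjusted p = 0.0477) was lost in DESeq2 (1.26), without the section block (1.80) and without section 3 (1.70), which holds no hypothalamus sum and enters through the shared spread. Slc18a2 had 2, 6 and 2 UMIs and its call (3.69 ± 0.80, edgeR adjusted p = 0.000457) was lost without section 2 (2.39, adjusted p = 0.155). Th had 19, 1 and 1 UMIs there, and was called without the filter (1.93 ± 0.45, edgeR adjusted p = 0.000381), where 2667 of 21475 genes were called.

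**Figure D2:**
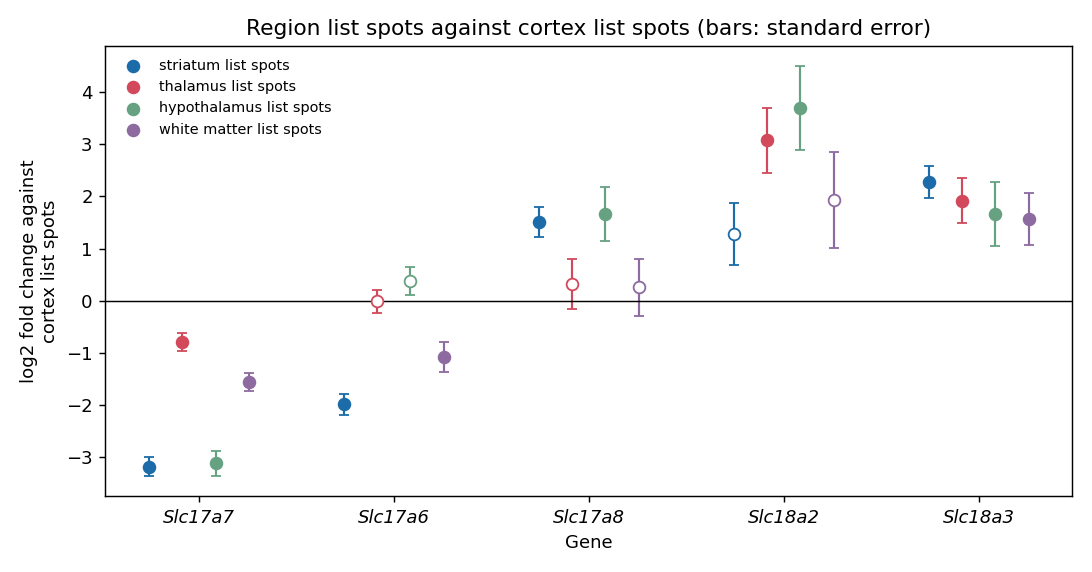
Log2 fold change of the members tested, in spots of 4 region lists against cortex list spots, with bars of 1 SE; filled points passed the adjusted p threshold of 0.05. Slc17a7 lies below 0 in the 4 contrasts and Slc18a3 above 0, while Slc17a6 was not called in thalamus list spots (-0.01) or hypothalamus list spots (0.38).

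Most spots with Slc17a6 also held Slc17a7. Of the spots with a Slc17a6 UMI, 78.1%, 94.96%, 84.5% and 85.7% also held Slc17a7 in sections 1 to 4, against 72.9%, 85.1%, 63.5% and 74.5% of all spots. The 2 RNAs were together in 214, 245, 163 and 216 spots, Slc17a7 stood alone in 907, 1761, 1294 and 850, and Slc17a6 stood alone in 60, 13, 30 and 36. More UMIs of Slc17a6 than of Slc17a7 were found in only 84, 16, 32 and 45 spots. A spot spans several cells, so 2 RNAs in a spot need not be in the same cell. Slc17a7 was also in 30% to 84.6% of the spots of the Ttr-led cluster 11, so these counts do not show whether the neurons themselves divide.

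When the spots of a section were ordered by Slc17a7 and binned, Slc17a6 was higher in the top bin than in spots without Slc17a7 in each section, though not step by step. In section 2, Slc17a6 went from 3.48 CPM in the 352 spots without Slc17a7 to 3.997, 5.01, 13.5 and 14.4 CPM in the 4 bins of rising Slc17a7. Section 3 showed 6.38, 4.27, 14.0, 14.3 and 13.0 CPM, with a fall at the first and the last step, and section 1 showed a flatter course of 14.2, 14.3, 15.2, 16.5 and 19.0 CPM. Section 4 fell at the same steps, at 19.4, 11.0, 21.6, 25.9 and 22.7 CPM. Spots without a Slc17a7 UMI carried more Slc17a6 in sections 1 and 4 than in sections 2 and 3. These bins differ in depth (median UMIs per spot of 6320 to 17707), and the rank correlation of the 2 genes over spots was weak, at 0.07 to 0.19.

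**Figure D3:**
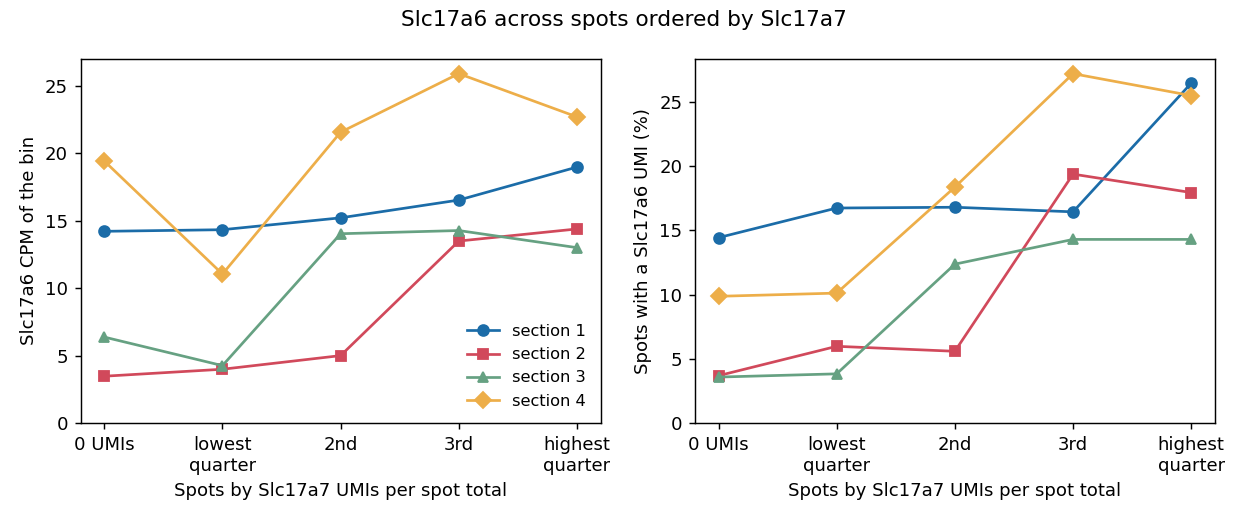
Slc17a6 level in CPM (left) and share of spots with a Slc17a6 UMI in percent (right), by bin of Slc17a7 (0 UMIs, then the rest in 4 equal parts from the lowest to the highest, here bins 1 to 4), 1 line for each section. Slc17a6 CPM is higher in bin 4 than in bin 0 in all 4 sections, most clearly in section 2, from 3.48 to 14.4 CPM.

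The number of spots with both genes depended on how the expected number was set. From each gene's mean level and the spots' depth, 1149 spots with both were expected and 838 were seen, a ratio of 0.73 (95% interval 0.681 to 0.780, counting error only). With the expected number matched to how many spots each gene was in, it was 804, a ratio of 1.04. Slc17a7 with Gad1, which makes GABA in other neurons, gave 0.73 and 0.98 in the same way.

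The spots were also grouped by k-means into 12 expression clusters, from variable genes without the 9 members; these are descriptions with no test. Clusters 2 (led by Kcnab3 and Pvalb), 4 (Ccn3, Vip) and 5 (Nxph3, Ighm, Cplx3) had the most Slc17a7, and 45.5% to 57.3% of their spots were cortex list spots. In cluster 5, Slc17a7 was at 898, 1045, 871 and 919.9 CPM with Slc17a6 at 12.9, 6.49, 4.56 and 10.9 CPM. Cluster 2 had less Slc17a7, 733, 881, 709.6 and 694 CPM, and more Slc17a6, 25.03, 19.2, 19.7 and 32.7 CPM. Cluster 4 had Slc17a7 at 1091, 911, 938 and 750 CPM and Slc17a6 at 22.1, 12.1, 13.8 and 23.9 CPM. Of these 3 clusters, the one with the least Slc17a7 thus had the most Slc17a6 in 4 of 4 sections. Clusters 4 and 5 did not keep that order in sections 1 and 3, where cluster 4 was higher in both genes. Whether the Slc17a6 of these clusters came from cortical neurons or from other RNA in the spots was not tested.

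Cluster 6 was where Slc17a6 came closest to replacing Slc17a7. It held 268, 17, 79 and 156 spots, was led by Gnrh1 (the reproductive releasing hormone), Igsf1, AW551984, Agt (angiotensinogen) and Lhx8 (a factor of basal forebrain cholinergic neurons), and 67.1% of it had no region. Slc17a6 was at 35.6, 20.3, 31.8 and 44.7 CPM and Slc17a7 at 59.6, 128, 84.3 and 38.2 CPM, so Slc17a6 made up 37.4%, 13.6%, 27.4% and 53.9% of the pair's UMIs. Over the remaining clusters of at least 20 spots, with 1 exception, this share was under 12%. The exception was cluster 10 in section 1, at 23.1%. Under 20 spots, the share of cluster 6 in section 2 rested on 17 spots and 3 Slc17a6 UMIs. Cluster 12 in section 1, left out by that limit, was at 30.8% on 16 spots and 4 Slc17a6 UMIs. Cluster 6 also held Slc17a8 at 24.0 CPM in section 4, on 44 UMIs, against 7.32, 0 and 3.18 CPM in the other sections, and Slc18a3 at 16.7, 0, 12.7 and 3.82 CPM.

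Slc17a7 RNA was also found in spots of tissue not known for glutamate neurons. In cluster 11, led by the choroid plexus gene Ttr, with 51.3% ependyma list and 46.2% choroid plexus list spots, it was at 98.2, 112, 116 and 99.3 CPM, with a UMI in 75.5%, 84.6%, 47.6% and 30% of spots at median depths of 15910, 12182, 8634 and 5315 UMIs. The striatal cluster 1 (led by Lrrc10b, Cd4 and Ido1) had a like 90.7, 103, 64.5 and 104 CPM. Slc17a7 in striatum list spots was below the level of cluster 11 in sections 1 to 3 and close to it in section 4, 105 against 99.3 CPM, and cannot be told apart from it. Choroid plexus list spots held 227 CPM in section 1 and 89.7 CPM in section 4. The levels in hypothalamus list spots (45.3 to 131 CPM) and in cluster 6 (38.2 to 128 CPM) lay around the same values. Whether this RNA came from neighbouring tissue in the spot or from free RNA was not tested. In cluster 11, Slc17a6 was at 2.26, 0, 6.10 and 5.22 CPM on at most 2 UMIs a section, a range that holds its level in striatum list spots as well.

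**Figure D4:**
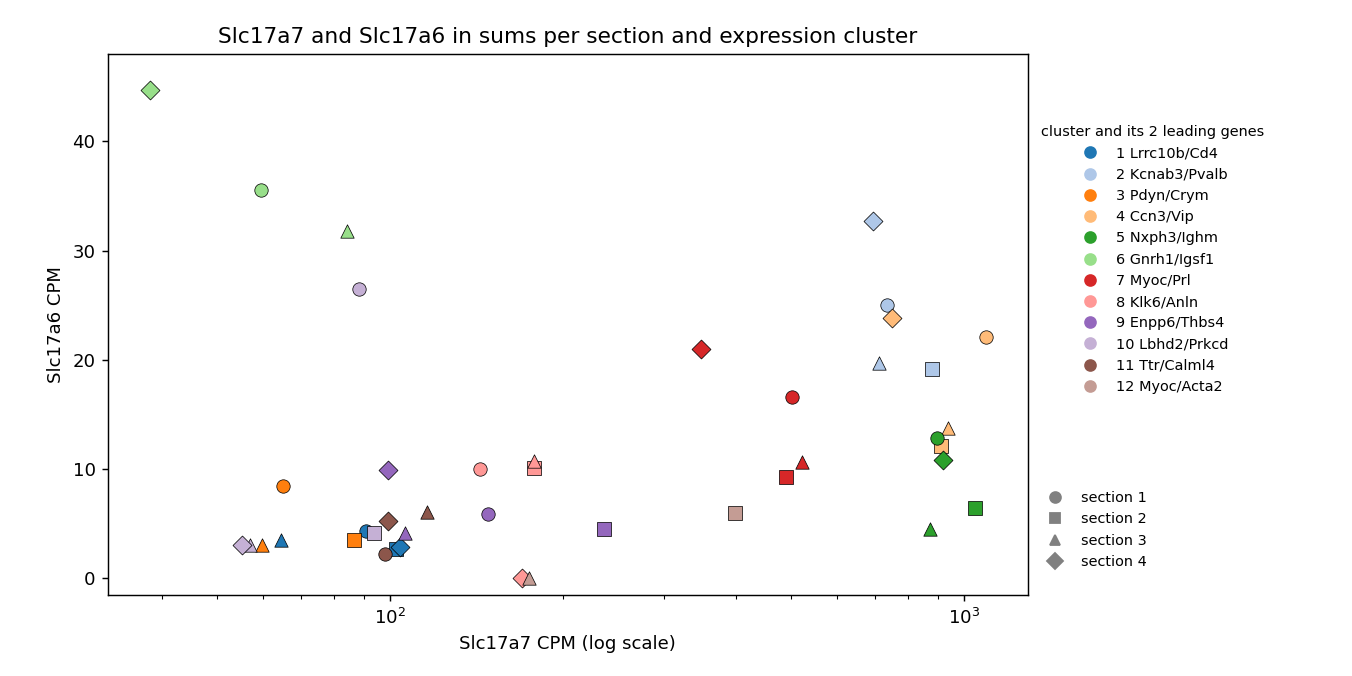
Slc17a6 CPM against Slc17a7 CPM (log axis) in sums per section and expression cluster, for clusters with at least 20 spots in the section; colours give clusters and marker shapes sections. Cluster 6 stands at the upper left with 31.8 to 44.7 CPM of Slc17a6, and clusters 2, 4 and 5 at the right.

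Spots led by Slc17a6 could be compared with spots led by Slc17a7, the gene with more UMIs deciding. This used sections 1, 3 and 4, with 84, 32 and 45 Slc17a6-led spots against 1043, 1446 and 1045 Slc17a7-led spots. With at least 2 UMIs of the 2 genes, 36, 5 and 20 Slc17a6-led spots remained. In each section, then, most Slc17a6-led spots held 1 Slc17a6 UMI and no Slc17a7. Of 13912 genes tested, 349 were higher and 643 lower in the Slc17a6-led spots, 7.13% in all and 2.51% as higher. Slc18a3 was higher, at 21.3, 3.52 and 13.9 CPM against 5.47, 3.57 and 1.63 CPM (log2 fold change 1.99 ± 0.44, edgeR adjusted p = 0.000884), but section 3 showed no difference, and the call was lost without section 1 (2.10, adjusted p = 0.141), without the section block (2.10, adjusted p = 0.0609) and with classes cut at 2 UMIs (1.37, adjusted p = 0.421). Spots in which neither gene had more UMIs held Slc18a3 at 12.3, 9.32 and 3.27 CPM in the same sections, a description without a test. Slc17a8 was not called (-0.05, 95% interval -1.11 to 1.01, edgeR adjusted p = 0.982), nor was Slc18a2 (0.86 ± 0.94, edgeR adjusted p = 0.754). Th, with 6, 1 and 0 UMIs in the Slc17a6-led spots, was not called either (-0.14, 95% interval -1.495 to 1.21, edgeR adjusted p = 0.957), and its fitted value at 2 UMIs was -7.09 (adjusted p = 0.472).

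The genes that rose most in Slc17a6-led spots were Calb2 (the calcium-binding protein calretinin), Zic1 (a zinc-finger transcription factor), Sparc (a secreted matrix glycoprotein), Nts (the peptide neurotensin) and Minar2. Calb2 was at 216, 179 and 108 CPM against 33.6, 13.7 and 14.2 CPM (log2 fold change 2.96 ± 0.16, edgeR adjusted p = 7.95e-26). The other 4 rose by log2 fold changes of 1.504 to 1.75. Among the largest falls were Slc30a3, which loads zinc into the vesicles of cortical glutamate neurons, Neurod6, a factor of forebrain excitatory neurons, and Cck, the peptide cholecystokinin. Slc30a3 was at 10.3, 10.5 and 6.96 CPM against 53.4, 71.8 and 65.8 CPM (log2 fold change -2.70 ± 0.26, edgeR adjusted p = 4.49e-13). Gm11549, Neurod6, Myl4 and Cck fell by log2 fold changes of -2.35 to -2.72. The Slc17a6-led spots were chosen in part for lacking Slc17a7. Cck and Slc30a3 were among the genes most like Slc17a7 over sums per section and cluster (Pearson's r of 0.968 and 0.915), and Myl4 is on the cortex list. These falls therefore cannot be told apart from the choice of spots. The rises, and the call of Slc18a3 above, come from the same choice, and its part in them was not tested.

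Other transmitter genes also differed between these classes of spots. Against the 2.51% of all genes called higher and 7.13% called in all, 6 of 7 genes of GABA synthesis and transport were higher in the Slc17a6-led spots, among them Gad1 (0.50 ± 0.13, edgeR adjusted p = 0.00519), and none was lower (median log2 fold change 0.64 against -0.01 over all genes tested). Of 10 acetylcholine genes, 7 were higher and none lower (median 1.44), led by Gbx1 (2.94 ± 0.53), Ngfr (2.66 ± 0.60) and Lhx8 (2.48 ± 0.36). Among genes of glutamate handling, Glud1 and Slc1a3 were higher and Slc1a2, the main astrocyte glutamate transporter, was lower (-0.60 ± 0.13, edgeR adjusted p = 0.000452). Of the 9 monoamine genes tested, 1 was called, Nr4a2, which was lower (-2.11 ± 0.32, edgeR adjusted p = 5.80e-07). The GABA and acetylcholine rises were not particular to this split. Against cortex list spots, 5, 5, 7 and 3 of 7 GABA genes were higher in striatum, thalamus, hypothalamus and white matter list spots. Of 7 acetylcholine genes tested there, 6, 5, 6 and 5 were higher. In these contrasts 21.8%, 2.61%, 9.13% and 17% of all genes tested were higher, and 2 GABA genes were lower in striatum list spots.

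The cholinergic genes were examined through Slc5a7, the choline transporter, which is not one of the 9 and was used to pick spots: 230, 251, 116 and 61 spots in sections 1 to 4 held a UMI of it. Chat was at 2.25, 3.45, 1.55 and 4.05 CPM in these against 0.154, 0.0613, 0.338 and 0.164 CPM in other spots. The spots with Slc5a7 were somewhat deeper, with median UMIs of 10192 to 17019 against 8805 to 15089. CPM scale for total UMIs, but the part of depth in the choice of these spots was not tested. Chat was higher in every section (log2 fold change 4.17 ± 0.55, edgeR adjusted p = 0.00015), in a comparison that called 4.04% of 14368 genes, 1.92% as higher. Slc18a3 was at 23.5, 21.6, 28.6 and 18.2 CPM against 4.62, 4.23, 3.52 and 1.37 CPM (6.20-fold, log2 fold change 2.63 ± 0.18, edgeR adjusted p = 2.25e-08). Counts behind Chat are small, 9, 15, 2 and 4 UMIs in the spots with Slc5a7.

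In the Slc5a7 comparison Slc17a8, the third glutamate transporter, moved with the cholinergic genes and not with its relatives. In spots with Slc5a7 it was at 18.0, 26.7, 26.3 and 20.3 CPM against 4.36, 4.66, 3.81 and 4.98 CPM in other spots (5.26-fold, log2 fold change 2.40 ± 0.15, edgeR adjusted p = 1.18e-08). Slc17a7 was lower in the same spots, at 198, 313, 355 and 213 CPM against 369, 538, 458 and 496 CPM (log2 fold change -0.76 ± 0.07, edgeR adjusted p = 4.32e-06), though not without the section block (-0.75, adjusted p = 0.154). Slc17a6 was not called (-0.49 ± 0.16, edgeR adjusted p = 0.108), but was called without section 1 (-0.78, adjusted p = 0.0328) and without the filter (-0.51, adjusted p = 0.0361). Th missed the threshold (0.65 ± 0.22, edgeR adjusted p = 0.123), and Slc18a2 was at 2.25, 2.07, 0.774 and 1.01 CPM against 1.69, 2.39, 1.69 and 1.15 CPM (-0.02 ± 0.36, edgeR adjusted p = 0.997). Spots with Slc5a7 were not matched to the other spots by region. Slc5a7 itself was called higher in striatum, thalamus, hypothalamus and white matter list spots than in cortex list spots. The part of the regional mix in these differences was not tested. Slc17a8 and Slc18a3 parted in other contrasts. In thalamus list, white matter list and Slc17a6-led spots, Slc18a3 was called (log2 fold changes 1.92, 1.57 and 1.99). Slc17a8 was not called there (0.33, 0.26 and -0.05), while both were called in striatum and hypothalamus list spots. In hypothalamus list spots the 2 calls rested on different sections. Slc17a8 had 8, 0 and 21 UMIs and Slc18a3 15, 0 and 0 in sections 1, 2 and 4, and neither call held in every alternative.

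Of 9 acetylcholine genes tested besides Slc5a7, 8 were higher in the spots with Slc5a7 (median log2 fold change 1.37 against 0.00 over all genes tested, of which 1.92% were higher). The neurotrophin receptor Ngfr rose by a log2 fold change of 2.53 ± 0.36, Slc10a4, a vesicle protein of cholinergic neurons, by 2.61 ± 0.17, and Lhx8 by 1.80 ± 0.18. Ache, which breaks acetylcholine down, was at 136, 92.6, 106 and 80.0 CPM against 63.3, 50.9, 47.1 and 45.5 CPM (1.03 ± 0.06, edgeR adjusted p = 1.18e-08). Bche was not called (-0.37 ± 0.37, edgeR adjusted p = 0.754). None of the 10 glutamate handling genes was called, and 4 of 7 GABA genes were higher, by log2 fold changes of 0.29 to 0.41.

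Spots holding pairs of these RNAs gave a like picture, as counts without a test. Slc17a8 and Slc18a3 were together in 94 spots where 57.5 were expected from their mean levels, a ratio of 1.64 (95% interval 1.32 to 2.00, counting error only), and the ratio was 2.78 with the expected number matched to each gene's number of spots. The ratio of means was above 1 in each section, at 1.65, 1.42, 2.75 and 1.22. Chat and Slc18a3 shared 16 spots against 4.26 expected, 6, 8, 0 and 2 by section. From mean levels, Slc5a7 gave a ratio of 3.46 with Chat, 1.35 with Slc18a3 and 1.29 with Slc17a8. By section the last pairs were weaker in some, at 1.01, 1.39, 2.44 and 2.48 with Slc18a3 and 1.15, 1.13, 2.60 and 1.37 with Slc17a8. Among the 18 pairs of the 9 genes with at least 5 expected spots, 11 had an interval below 1 and 1, Slc17a8 with Slc18a3, above it. With matched numbers 3 lay below and 2 above.

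Slc18a2 had its own place. Cluster 10, led by Lbhd2, Prkcd, Glp1r and Igfbpl1 and mostly without a region, held 378 spots (4.96% of all) and 59.4% of the Slc18a2 UMIs. Its level there was 30.9, 21.9, 18.5 and 24.5 CPM in sections 1 to 4, on 21, 58, 24 and 8 UMIs, against a median of 1.02 CPM over the 12 clusters, and every section was high. Th in the same spots was at 2.94, 1.51, 1.54 and 0 CPM, on 8 UMIs in all. Slc6a3 and Slc6a4, with 14 and 3 UMIs over all sections, had too few to be read by cluster. Prkcd is also on the thalamus list, and 11.1% of the cluster's spots were thalamus list spots and 6.61% hypothalamus list spots. The Slc18a2 calls in those list spots are therefore not separate from this cluster. Among region lists with at least 20 spots in a section, the mean of Slc18a2 was highest in ependyma list spots. It was 10.9 CPM there (3.39 to 17.6 CPM over 4 sections), on 19 UMIs, and entered no test. With 8 clusters in place of 12, the cluster highest in Slc18a2 was broader, and its level was 11.6 CPM, with 71.7% of the UMIs. With sections pooled, Th was highest in cluster 3 (led by Pdyn, Crym and Wfs1, with 40.6% striatum list spots and 43.9% without a region), at 8.17, 10.1, 11.98 and 6.21 CPM. Cluster 6 was higher in section 2, at 13.5 CPM on 2 UMIs in 17 spots, and in section 3, at 12.7 CPM on 8 UMIs. In section 4 the level of cluster 3 rests on 1 UMI.

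**Figure D5:**
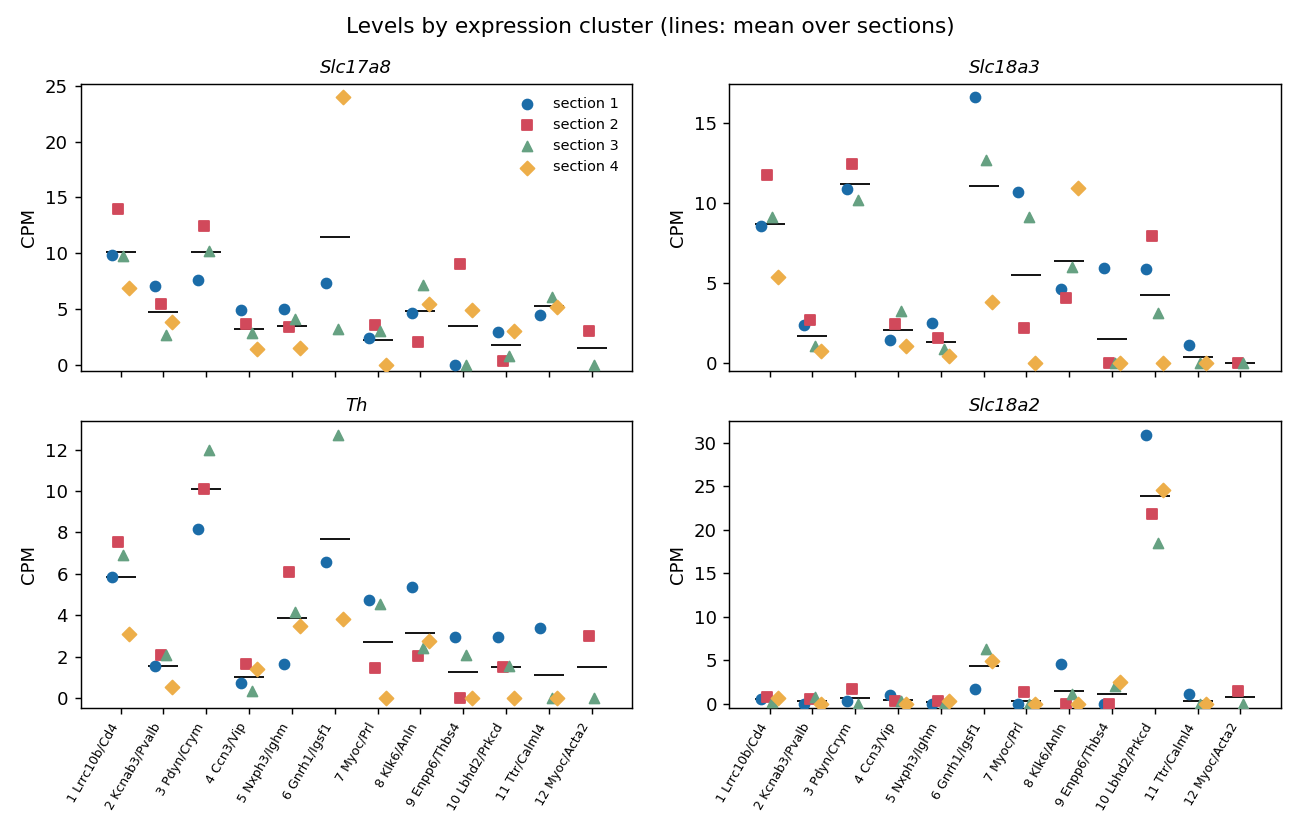
CPM of Slc17a8, Slc18a3, Th and Slc18a2 by expression cluster, 1 marker for each section with at least 20 spots in the cluster, and a line at the mean over those sections. Slc18a2 stands out in cluster 10, at 18.5 to 30.9 CPM, and Slc17a8 in cluster 6 in section 4 alone, at 24.0 CPM.

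Monoamine genes were next compared through Ddc, which decarboxylates the precursors of dopamine and serotonin and was used to pick 312, 261, 183 and 163 spots. The comparison called 1.25% of 14349 genes, 0.808% as higher. Th was at 7.98, 5.57, 4.51 and 3.45 CPM in spots with Ddc against 3.79, 4.59, 4.45 and 1.83 CPM in other spots and did not pass the test (log2 fold change 0.59 ± 0.21, 95% interval 0.19 to 1.00 before adjustment, edgeR adjusted p = 0.214). Slc18a2 was at 3.19, 3.02, 2.26 and 2.15 CPM against 1.41, 2.26, 1.58 and 1.00 CPM, higher in 4 of 4 sections but short of the threshold after adjustment (0.75 ± 0.29, edgeR adjusted p = 0.289). Slc17a7 was slightly lower in spots with Ddc (-0.28 ± 0.05, edgeR adjusted p = 0.000643), a call lost without section 1 (-0.22, adjusted p = 0.0992) and without the section block (-0.26). None of the 8 monoamine list genes tested besides the members was called. Ddc and Th shared 60 spots against 66.1 expected, and Th and Slc18a2 shared 8 against 13.2. For Ddc with Th the ratio of 0.91 became 1.67 after thinning to 5000 UMIs, so it gives no direction.

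Finally, the genes whose pattern was most like each member were ranked by Pearson's r of log2(CPM + 1) over 31 sums per section and region, which share libraries and depth. Slc17a7 was followed most closely by Cck (0.955), Dkkl1 (0.955) and Rtn4r (0.933), and Slc17a6 by Sv2a (0.826), Tmem65 (0.788) and Elavl4 (0.781). Slc18a3 was nearest to Slc5a7 (0.708), and Slc17a8 to Lhx8 (0.682), 2 genes of the acetylcholine list. The next genes were not on that list: Acap2 (0.661) and Hdhd2 (0.653) for Slc18a3, and Il17rc (0.669) and Nol10 (0.652) for Slc17a8. Over 43 sums per section and cluster, Cck (0.968) and Slc5a7 (0.795) kept first place for Slc17a7 and Slc18a3, while the first gene for Slc17a6 was Kcnc2 (0.820) and for Slc17a8 P3h1 (0.649). For Th the first genes were Mbtps1 (0.689) over regions and Foxp2 (0.724) over clusters.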

How the data were processed

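For each of 4 sections the authors deposited a table of raw UMI counts, genes by spots, made with Space Ranger against mm10 (submitters' processing notes; the matrix headers give 1.3.1). No normalization had been applied to the counts. The members, lists and comparisons were chosen with earlier results of these data known. Spots with at least 500 UMIs were kept. UMIs were summed per section and class of spots (at least 20 spots) and tested with edgeR 4.0.16 (R 4.3.3) by the quasi-likelihood test with TMM, filterByExpr and section as a block. Benjamini-Hochberg adjustment ran over all genes tested, with a threshold of 0.05. The replicate number is the section, so sums of 1 section are paired by construction, and their deviations correlated at 0.19 to 0.65. Doublets do not apply to spots. Slc17a6-led spots were planned with at least 5 UMIs of the 2 genes, which left too few, so at least 1 was used. Named genes were the members, the lists, and for that contrast the 5 largest rises and 5 largest falls with mean log2 CPM of at least 5 and 1 direction in all sections entered. The 12 clusters were drawn by k-means (scikit-learn 1.9.0) from the 1000 genes that varied most, members left out, after reduction to 20 components. Counting intervals and floors (3 counts) cover counting error only. On simulated data for striatum against cortex (11451 genes), 128 of 189 genes changed by a log2 fold change of 1 were called, with 7 of 11262 unchanged genes. The simulated sums shared a profile and a fixed spread, with no section effect and few changed genes. The real contrast called 43.8% of genes, so these rates need not hold for it. DESeq2 1.42.0 was an alternative. Results for some list genes are not reported here.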

Additional observations from a re-analysis of the deposited data

Results flagged for a closer look

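Of 37 sets of 4 section values examined, 5 had a section further from the rest than Dixon's 95% critical value allows for the gap over the range, and chance alone flags about 1 set in 20. Slc17a6 in cortex list spots had a ratio of 0.863, with section 4 high at 29.0 CPM against 12.2 to 14.5 CPM. Th had a ratio of 0.906, with section 4 low at 2.02 CPM against 4.45 to 4.70 CPM. Cluster 3, where Th was highest with sections pooled, held 198, 387, 313 and 15 spots in sections 1 to 4. The part of this tissue mix in the level of Th was not tested. Slc6a3 had a ratio of 0.858, with 8 UMIs in section 2 against 2 in each other section. Slc6a4 had a ratio of 1 for its CPM and of 1 for its share of spots, since its 3 UMIs were all in section 2.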

How the results depend on the processing

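Among log2 fold changes of the members, 389 alternatives kept direction and call, 13 lost the call, 2 gained it and 19 changed sign, and among counts of genes called 65 of 81 stayed within 1.5 times the reported count. Classes of at least 3, 5 or 10 UMIs of Slc17a7 and Slc17a6 could not be fitted, since fewer than 2 sections held 20 Slc17a6-led spots. The added settings (2 UMIs, other cluster numbers, matched expected numbers) were chosen after seeing the data. The cause of the changes below was not tested.

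Thinning lowered the mean share of spots to 61.6% for Slc17a7, 5.81% for Slc17a6, 2.64% for Slc17a8, 0.974% for Slc18a2, 2.46% for Slc18a3, 0.232% for Chat, 2.14% for Th and 0.0606% for Slc6a3. Slc6a3 was at 0.19987 CPM as a mean over spots. Thinned ratios of observed to expected spots were 0.781 for Slc17a7 with Slc17a6, 2.29 for Slc17a8 with Slc18a3, 7.37, 2.73 and 3.59 for Slc5a7 with Chat, Slc18a3 and Slc17a8, and 1.67 and 1.44 for Ddc with Th and Slc18a2. With matched numbers they were 1.04, 2.78, 5.41, 2.51 and 2.44 for the first 5 of these pairs. Leaving out 1 section gave 1.23 to 1.65 for Slc5a7 with Slc18a3.

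Without the section block (replicate block), the genes called were 244 for thalamus list spots (756 with it), 472 for Slc17a6-led spots (992), 23 for spots with Slc5a7 (580) and 0 in edgeR for spots with Ddc (179 with it), where 328 genes had an unadjusted p under 0.05 without the block. DESeq2 called 380, 300 and 71 genes for the last 3, and no filter called 349 for Ddc. Leaving out 1 section gave 390 to 800 for thalamus list spots, 494 to 949 for Slc17a6-led spots, 166 to 616 for Slc5a7 and 57 to 241 for Ddc. The fewest were without section 1 (Ddc, and thalamus list spots with section 3), section 4 (Slc17a6-led spots) and section 2 (Slc5a7).

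Against cortex list spots, Slc17a7 in thalamus list spots was not called by DESeq2 (-0.74). Slc17a6 there changed sign in DESeq2 (0.054), with all spots (0.029), with a score of 1 (0.0076), and over left-out sections (-0.15 to 0.19). Slc18a3 in hypothalamus list spots was not called by DESeq2 (1.26) or without the block (1.80), and Slc17a8 in white matter list spots changed sign with a score of 1 (-0.083). Leaving out 1 section gave 2.36 to 3.27 for Slc18a2 in thalamus list spots, -0.066 to 2.55 for Slc17a8, 2.39 to 4.52 for Slc18a2 and 1.70 to 2.30 for Slc18a3 in hypothalamus list spots, and -1.27 to -0.72 for Slc17a6 in white matter list spots.

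In Slc17a6-led spots, Slc17a8 changed sign in DESeq2 (0.034), at 2 UMIs (0.74) and without the block (0.029), Th had a fitted value of -7.09 at 2 UMIs, and Slc18a3 was not called at 2 UMIs (1.37) or without the block (2.10). Leaving out 1 section gave -0.67 to 0.61 for Slc17a8, 1.62 to 2.25 for Slc18a3 and -1.17 to 0.15 for Th. In spots with Slc5a7, Slc18a2 changed sign at 2 UMIs (0.35) and without the block (0.084), and over left-out sections (-0.29 to 0.092), and in spots with Ddc, Slc18a3 did so at 2 UMIs (0.15), while leaving out 1 section gave -0.12 to 0.033 for Slc17a6 and -0.23 to 0.20 for Slc17a8.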

Other observations

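Receptors for the same transmitters, from a list of acetylcholine and serotonin receptors, also differed between striatum and cortex list spots. Of 5 acetylcholine receptor genes tested, none was higher and 3 were lower in striatum list spots (median log2 fold change -1.06 against 0.03 over all genes, of which 21.9% were called lower and 43.8% in all). Of 6 serotonin receptor genes, Htr1b (2.76) and Htr2c (0.66) were higher, and Htr5a (-1.31), Htr1a (-1.97) and Htr7 (-1.90) were lower, each with an edgeR adjusted p under the threshold.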
